A study of Mus musculus with 4 samples.

Results

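The genes that make microRNAs and the genes through which microRNAs act were examined in mouse hair follicle stem cells with and without the microRNA miR-205. The set holds 10 genes, chosen by name for their function, out of 18193 genes with a probe set on the array. They are Drosha and Dgcr8, Xpo5, Dicer1 and Tarbp2, the 4 Argonaute genes Ago1, Ago2, Ago3 and Ago4, and Tnrc6a. All 10 were represented, by 34 probe sets in all, and each gene was described by its probe set of highest mean over the 4 arrays, with the others given beside it. The knockout (KO) group held 2 arrays of cells labelled miR-205 KO and the wild-type (WT) group 2 arrays of cells labelled WT, both from skin at postnatal day 4 (P4) and of C57BL/6 strain background. The cells were sorted by flow cytometry before RNA extraction. The labels do not give the miR-205 allele, any promoter or Cre that drives it, the sort gate, or how many animals a sample came from. They call the samples of a group biological replicates with the numbers 1 and 2, but not whether they were separate animals, so the spread behind each p-value may be in part technical. A treatment protocol in the labels concerns doxycycline induction of another microRNA, miR-203, in K14-rtTA mice, and groups were taken from the sample titles alone.

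MicroRNAs are cut from longer transcripts in steps. In the nucleus the ribonuclease Drosha, bound to the RNA-binding protein Dgcr8, crops a hairpin out of the primary transcript, and Exportin-5 (Xpo5) carries that hairpin to the cytoplasm. There Dicer1, with its partner Tarbp2, removes the loop, and an Argonaute protein keeps a single strand of the duplex as a guide to messenger RNAs. Tnrc6a, also called GW182, binds the Argonaute and recruits the enzymes that shorten poly(A) tails and remove caps. miR-205 is abundant in epithelia such as the epidermis and hair follicle. Loss of Dicer1 or Dgcr8 in mouse skin is known to disturb hair follicle development.

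The hairpin of miR-205 is the substrate that these enzymes handle and that the KO cells lack by their label, so its sequence is shown with the mature strands in capitals (RefSeq, GRCm38.p6, minus strand, chr1:193507463-193507530). It is 68 bases long, and 14 bases, which include the loop, lie between the strands.
mir-205 hairpin: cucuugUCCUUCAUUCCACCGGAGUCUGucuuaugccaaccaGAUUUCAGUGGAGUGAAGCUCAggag
The mature strands, 22 bases each, are shown with the seed in capitals, bases 2 to 8 from the 5′ end, through which a microRNA mainly recognises its targets.
mmu-miR-205-5p: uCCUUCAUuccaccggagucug
mmu-miR-205-3p: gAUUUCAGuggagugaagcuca
The arrays carry no measurement of the mature microRNA. The probe set of the host transcript Mir205hg read 6.52 and 6.13 on KO arrays 1 and 2, and 5.81 and 5.30 on WT arrays 1 and 2. It differed by 0.77 (KO minus WT, log2 units, SE 0.26, limma adjusted p = 1), and it does not check the genotype, because the deleted part is not given in the labels.

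Expression is given on the log2 scale, as the authors computed it by RMA, which brings all arrays to a common distribution. Pearson's r between arrays ran from 0.992 to 0.997 across genes. All 6 basal keratinocyte markers and 9 of 10 follicle stem cell markers had a mean above that of the median gene (6.88), among them Krt14 at 13.54 to 13.73, Krt15 at 13.62 to 14.05 and Lhx2 at 11.66 to 11.76 over the 4 arrays. Dio2, at 6.20 to 6.50, was below it, and Cd34 ran from 6.20 on WT 2 to 8.32 on WT 1, with KO at 6.87 and 6.69. Means above the median gene were also found for 8 of 9 dermal fibroblast, 4 of 6 suprabasal epidermis and 3 of 6 melanocyte markers. They were found for 1 of 6 endothelial and 0 of 6 immune markers. This measure therefore does not set follicle cells apart from fibroblasts. The summed linear level of 9 dermal fibroblast markers was 22028 and 11090 on KO 1 and KO 2, and 40226 and 8198 on WT 1 and WT 2. The 18S ribosomal RNA control at the 5′ end was at 11.51 and 11.59 on the arrays of number 1 and at 9.46 and 9.40 on those of number 2. Only 2 of the 18193 genes (0.011%) passed an adjusted p under 0.05 (limma), Xist (lower in KO) and the Y-linked Eif2s3y (higher in KO). KO and WT arrays therefore also differ in Xist and Y-linked RNA, and the part of that difference in the results below cannot be told apart from genotype.

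Differences between KO and WT cells were small in all 10 machinery genes, the largest being -0.26 for Tarbp2. No member passed the adjusted threshold (limma, adjusted p = 1 for each of the 10), and none had an unadjusted p under 0.05, against 1.88% of all genes. Without WT 2 the difference of Dicer1 was -0.12. Both KO arrays read 8.22 for it and 1 WT array was left, so no spread within a group stood behind that value. The differences of the 10 genes ran from -0.26 to 0.14 on the log2 scale, with a median of 0.02 beside 0.01 over all genes. Values were higher in KO cells for 6 members and lower for 4. KO and WT arrays did not overlap for 3 of the 10, Dgcr8 (higher) and Dicer1 and Tarbp2 (lower). Among all genes 13.9% did not overlap, 8.2% with KO higher and 5.7% with KO lower. With 2 arrays per group an exact two-sided permutation test of a single gene cannot go below p = 0.333.

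**Figure D1:**
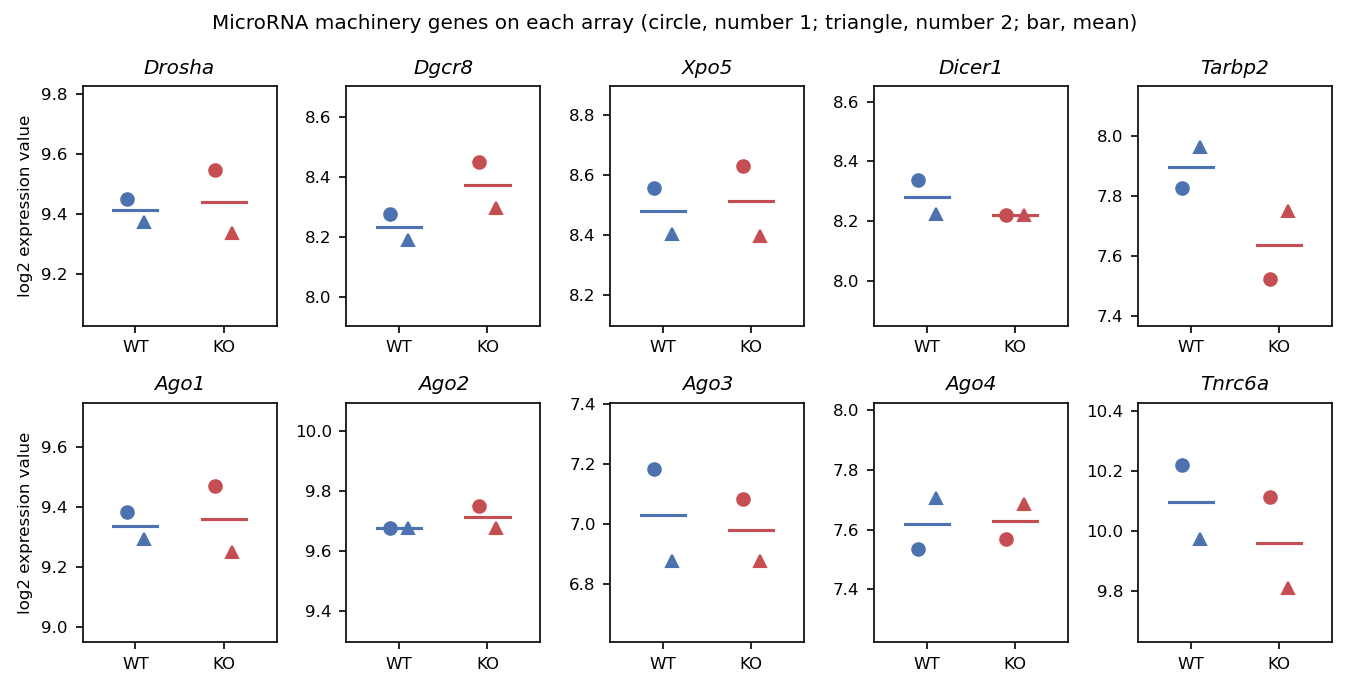
Log2 expression value (vertical axis, 0.8 log2 units in each panel) of the brightest probe set of each gene on the WT (blue) and KO (red) arrays, with circles for number 1, triangles for number 2 and a bar for the group mean. KO and WT values are apart for Dgcr8 and Tarbp2, barely so for Dicer1 (KO 8.22 and WT down to 8.23), and overlap or touch for the other 7 genes.

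Among the genes of the nuclear cropping step, Dgcr8, the hairpin-binding partner of Drosha, read 8.45 on KO 1 and 8.30 on KO 2, and 8.28 on WT 1 and 8.19 on WT 2 (probe set 1455311_at). Both KO arrays lay above both WT arrays, though KO 2 and WT 1 were close together. The difference was 0.14 (SE 0.08, 95% interval -0.11 to 0.40, limma adjusted p = 1). A second probe set of Dgcr8 showed the same separation, at 7.54 and 7.46 in KO against 7.39 and 7.27 in WT, with a difference of 0.17. The 2 remaining, dim Dgcr8 probe sets, with means of 4.64 and 4.08, differed by 0.06 and 0.07 with overlapping groups.

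Drosha, the ribonuclease of that step, read 9.55 on KO 1, 9.34 on KO 2, 9.45 on WT 1 and 9.38 on WT 2 (1438505_s_at). The highest and the lowest array were both KO arrays. Its difference was 0.03 (SE 0.10, 95% interval -0.28 to 0.34). The other Drosha probe sets were higher on both KO arrays, with differences of 0.12 (mean 8.08) and 0.13 (mean 5.55), but neither passed (limma, adjusted p = 0.996 over all probe sets).

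Xpo5, the carrier of the hairpin to the cytoplasm, read 8.63 on KO 1, 8.40 on KO 2, 8.56 on WT 1 and 8.40 on WT 2 (1428560_at). Arrays of number 1 were high and arrays of number 2 low in both genotypes, and the genotypes differed by 0.03 (SE 0.12, 95% interval -0.34 to 0.41). Its dimmer probe set was at 7.60 and 7.55 in KO, and at 7.44 on both WT arrays. That probe set differed by 0.14 and was the 1 of the 34 with an unadjusted p under 0.05 (limma, unadjusted p = 0.0395, adjusted p = 0.996). Among all genes, by the brightest probe set of each, 1.88% were under 0.05.

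Dicer1, the ribonuclease that cuts the hairpin into the mature duplex, read 8.22 on both KO arrays, 8.34 on WT 1 and 8.23 on WT 2 (1460571_at). Only WT 1 stood apart, and KO 2 minus WT 2 was -0.0050. The difference was -0.06 (SE 0.06, 95% interval -0.25 to 0.12), a fold of 0.959 with an interval from 0.843 to 1.09. A second Dicer1 probe set differed by -0.07 with overlapping groups.

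Tarbp2, a double-stranded RNA-binding partner of Dicer1, had the largest difference of the 10 genes. It read 7.52 on KO 1 and 7.75 on KO 2, against 7.83 on WT 1 and 7.96 on WT 2 (1423616_at). Both KO arrays were below both WT arrays, and the value was lower in KO within each number, by 0.30 for number 1 and by 0.22 for number 2. The difference of -0.26 (SE 0.11, 95% interval -0.61 to 0.10) did not pass (limma unadjusted p = 0.103, adjusted p = 1), and 5.63% of all genes differed at least as much. The other Tarbp2 probe set, of similar brightness, read 7.58 on 3 arrays and 7.67 on WT 1, a difference of -0.05.

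**Figure D2:**
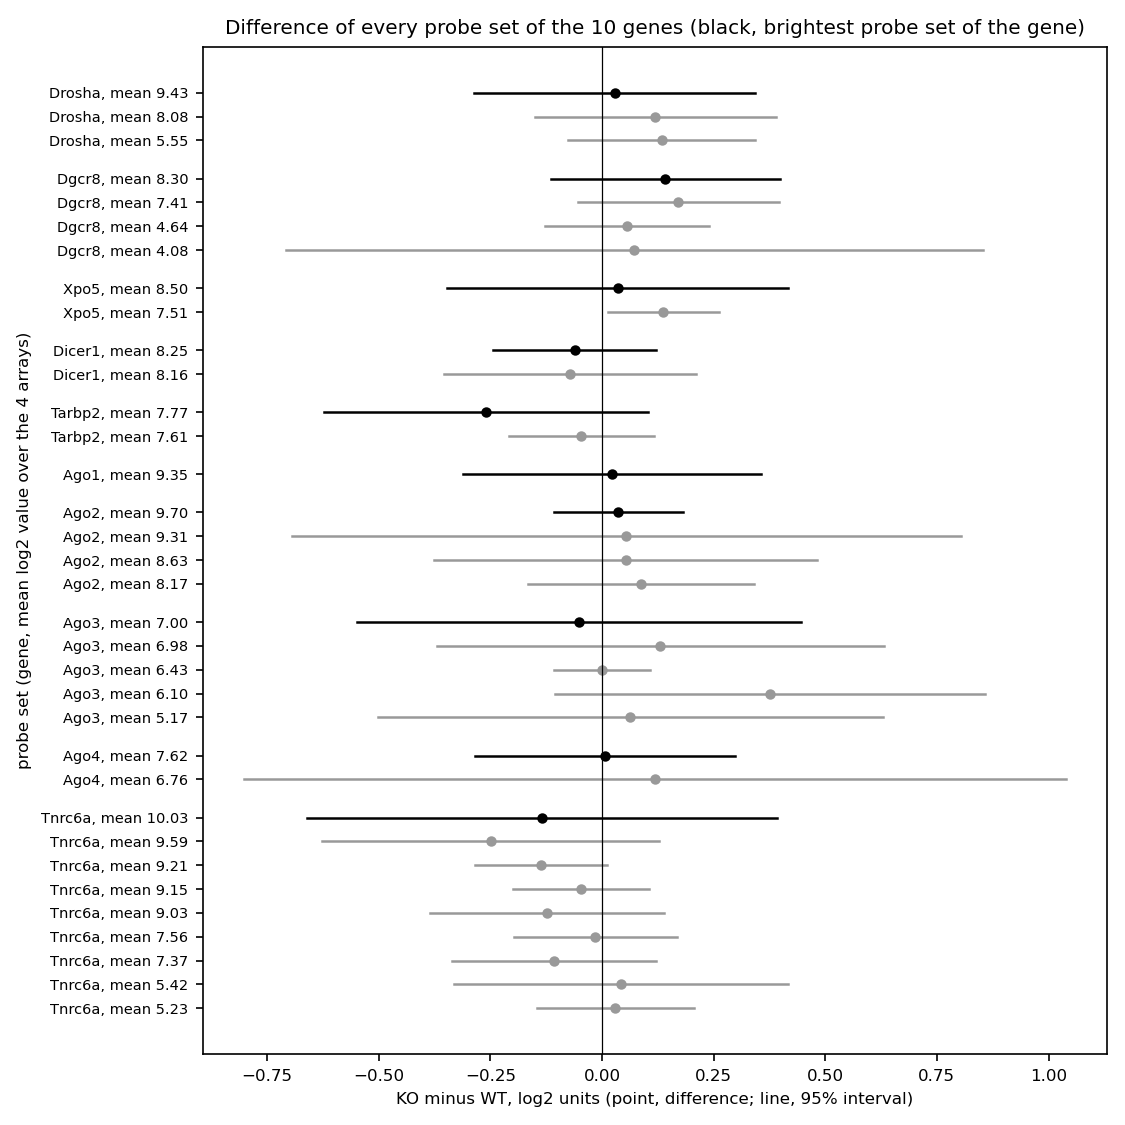
KO minus WT difference in log2 units (horizontal axis) for each of the 34 probe sets of the 10 genes, with 95% intervals from limma fitted over all probe sets, in black for the brightest probe set of a gene and grey for the others. The intervals of 33 probe sets include 0, and the exception is the second probe set of Xpo5, at 0.14.

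The Argonaute genes, whose proteins hold the guide strand, lay close to 0. Ago1, Ago3 and Ago4 are neighbours on chromosome 4, in the order Ago3, Ago1, Ago4, and Ago2, which encodes the Argonaute able to slice its target, lies on chromosome 15. Ago2 read 9.75 on KO 1 and 9.68 on the other 3 arrays (1455389_s_at), so that KO 1 alone set its difference of 0.04 (SE 0.05, 95% interval -0.11 to 0.19). Its 3 other probe sets differed by 0.05 to 0.09. For 2 of these the arrays separated by number and not by genotype. The first read 9.56 on KO 1 and 9.46 on WT 1 against 9.12 on KO 2 and 9.11 on WT 2.

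Ago1 read 9.47 on KO 1, 9.25 on KO 2, 9.38 on WT 1 and 9.29 on WT 2 (1434331_at), a difference of 0.02 (SE 0.10). Ago4 was at 7.57 on KO 1, 7.69 on KO 2, 7.53 on WT 1 and 7.70 on WT 2 (1453289_at), a difference of 0.01 (SE 0.09). Ago3 was at 7.08 on KO 1, 7.18 on WT 1 and 6.88 on both arrays of number 2 (1441063_at), a difference of -0.05 (SE 0.15). In all 3 genes the genotypes overlapped, and the array numbers did not.

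Further probe sets of these Argonautes did not settle a direction. Those of Ago3 differed by 0.13, 0.00, 0.38 and 0.06, and the probe set with a difference of 0.00 had the same value, 6.43, on all 4 arrays. The difference of 0.38 belonged to a probe set at 6.47 and 6.11 in KO and at 5.93 and 5.90 in WT (limma unadjusted p = 0.0882, adjusted p = 0.996). A second probe set of Ago4 differed by 0.12 between genotypes and by 0.49 between numbers.

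Tnrc6a, the scaffold that links Argonaute to mRNA decay, was covered by 9 probe sets. The brightest read 10.11 on KO 1, 9.81 on KO 2, 10.22 on WT 1 and 9.97 on WT 2 (1439244_a_at). Each KO array was below the WT array of its number, but the genotypes overlapped, and the difference was -0.13 (SE 0.16, 95% interval -0.65 to 0.38, limma adjusted p = 1). Values were lower in KO in 7 of the 9 probe sets, and the 2 that were higher, by 0.04 and 0.03, were the dimmest, with means of 5.42 and 5.23. In 3 probe sets both KO arrays lay below both WT arrays, with differences of -0.25, -0.14 and -0.12, and the smallest unadjusted p was 0.0606 (limma, adjusted p = 0.996). Among all genes, by the brightest probe set of each, 5.7% had both KO arrays below both WT arrays. Probe sets of a gene are hybridised with the same RNA and are not replicates.

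Over the 34 probe sets, 21 had higher and 12 lower values in KO cells, and 1 had equal group means. Probe sets went a single way for Drosha, Dgcr8, Xpo5, Ago2 and Ago4 (higher in KO) and for Dicer1 and Tarbp2 (lower), and both ways for Ago3 and Tnrc6a. No probe set of the 10 genes passed an adjusted p under 0.05 over all probe sets. Of all 45037 probe sets in that fit 0 passed, so this does not set the 10 genes apart.

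Most of these genes differed more between the array numbers than between genotypes. The median size of the difference, without its sign, was 0.15 between numbers and 0.04 between genotypes over the 10 genes, beside 0.11 and 0.07 over all genes. The numbers did not overlap for 6 of the 10, against 43.7% of all genes. Drosha, Xpo5, Ago1, Ago3 and Tnrc6a were higher on number 1, where 22% of all genes were, and Ago4 was lower. The differences, number 1 minus number 2, were 0.14 for Drosha, 0.19 for Xpo5, 0.16 for Ago1, 0.26 for Ago3, 0.28 for Tnrc6a and -0.14 for Ago4. The 18S control and the summed fibroblast markers were also higher on the arrays of number 1, though the fibroblast marker Fbln1 overlapped. Summed melanocyte markers were 926 on KO 1 and 1057 on WT 1, against 689 on KO 2 and 778 on WT 2, though Mitf overlapped. The part of the 18S control and of these markers in the differences between numbers was not tested. In bulk RNA of sorted cells, a changed share of a cell type and a changed level per cell cannot be told apart.

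**Figure D3:**
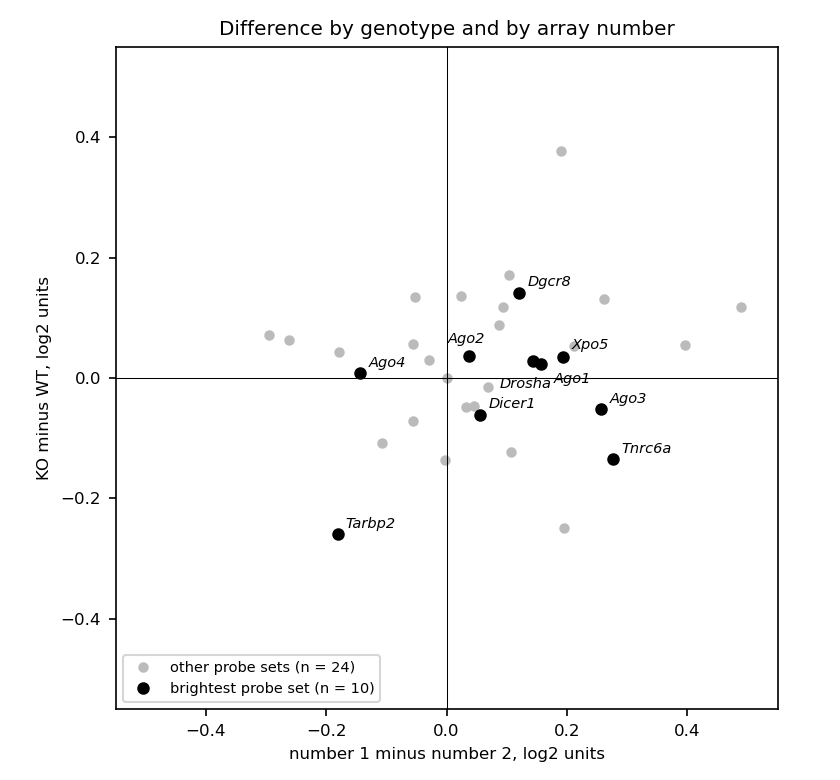
Difference between genotypes (vertical axis, KO minus WT) against the difference between array numbers (horizontal axis, number 1 minus number 2), both in log2 units on equal scales, for the brightest probe set of each gene (black, named) and the 24 other probe sets (grey). Among the named genes, Tnrc6a and Ago3 lie farthest right, at 0.28 and 0.26, and Tarbp2 lowest, at -0.26.

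The other genes of the pathway were taken from 8 lists by role, which held 72 genes, 69 of them measured by a probe set with that single symbol. None passed the adjusted threshold in either direction (limma, smallest adjusted p = 1), and 1 of the 69 had an unadjusted p under 0.05, beside 1.88% of all genes, a like share. The median difference was 0.01, and the groups did not overlap for 11 of 69 genes, 5 higher and 6 lower in KO, beside the 13.9% of all genes given above.

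The gene was Tsn, which encodes translin, an RNA-binding protein that forms with translin-associated factor X (Tsnax) the C3PO complex, an endoribonuclease known to remove the cleaved passenger strand during Argonaute loading. Tsn read 10.72 on KO 1 and 10.85 on KO 2, against 10.24 on WT 1 and 10.01 on WT 2 (1416908_s_at). Both KO arrays were well above both WT arrays. The difference was 0.65 (SE 0.11, 95% interval 0.30 to 1.01), a fold of 1.57, with an unadjusted p of 0.00951 and an adjusted p of 1 (limma). Only 77 of 18193 genes (0.423%) differed at least as much. The 3 other probe sets of Tsn also had both KO arrays above both WT arrays, with differences of 0.42, 0.56 and 0.81. Its partner Tsnax, at 9.52 and 9.66 in KO and 9.50 and 9.51 in WT, differed by 0.08 (SE 0.07). The summed linear level of 6 suprabasal epidermis markers was higher in KO cells, at 10721 and 10549 against 7142 and 5888 in WT. Krt1, Krt10 and Krtdap were higher on both KO arrays, and Ivl, Lor and Flg overlapped. The sum of 6 endothelial markers was lower, at 346 and 358 against 389 and 420. Pecam1, Kdr and Egfl7 were lower on both KO arrays, Esam and Emcn overlapped, and Cdh5 was equal. Only Egfl7 was above the median gene. Sums of 6 basal keratinocyte and 10 follicle stem cell markers were also higher in KO. They were 39994 and 38193 against 36565 and 34313, and 31762 and 34334 against 30067 and 31142. The single markers did not all follow these sums. Krt5 and Krt14, and Krt15, Lhx2, Dio2 and barely Tbx1, were higher on both KO arrays. Itga6, Itgb4, Trp63 and Col17a1 overlapped. Sox9, Nfatc1, Tcf7l2, Cd34, Lgr5 and Nfib also overlapped, with lower means in KO. Fibroblast, melanocyte and immune sums overlapped. The part of these marker groups in the differences of Tsn, Dgcr8 and Tarbp2 was not tested.

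**Figure D4:**
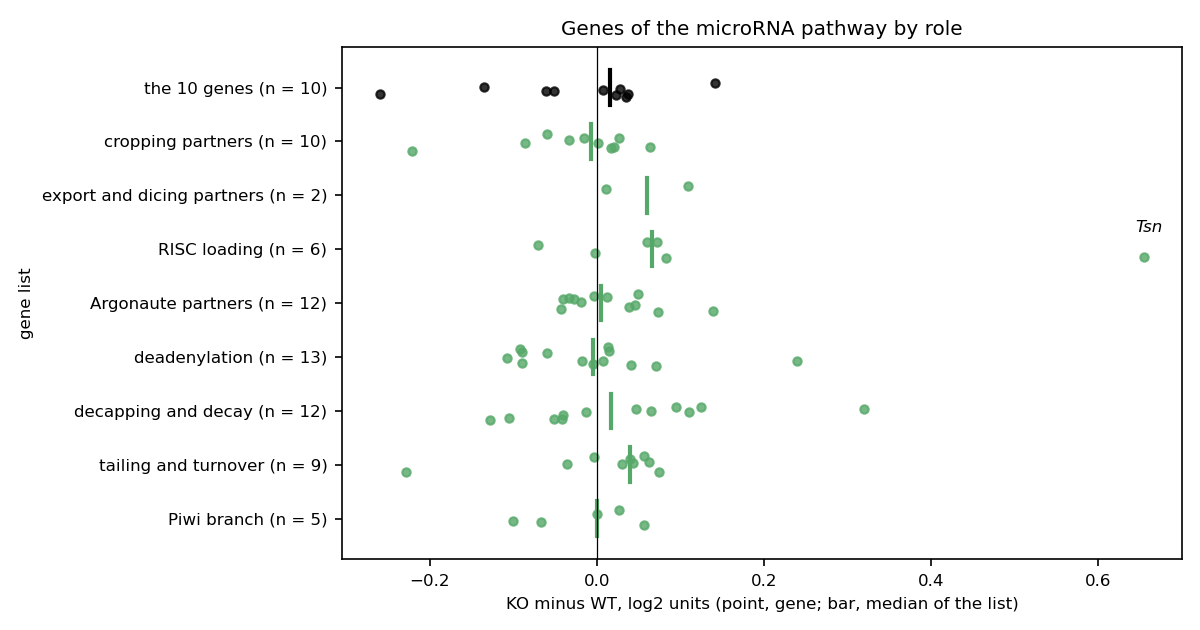
KO minus WT difference in log2 units (horizontal axis) of the 10 genes (black) and of the measured genes of 8 lists of the pathway (green), 1 point per gene, with a bar at each list's median and vertical scatter for legibility only. Tsn, at 0.65, lies apart from the other genes of its list.

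The medians of the 8 lists lay between -0.01 and 0.07. The 6 genes of Argonaute loading had a median of 0.07, and the chaperone Hspa8 differed by -0.07 (SE 0.06). Of the cropping partners (10 genes, median -0.01), the RNA-binding protein gene Hnrnpa1 differed by -0.22 (SE 0.19) and the cap-binding subunit Ncbp2 by 0.06 (SE 0.06). Prkra, the paralogue of Tarbp2 that also binds Dicer1, was at 8.22 and 8.35 in KO and at 8.22 and 8.13 in WT, a difference of 0.11 (SE 0.07), and the transport GTPase Ran, which loads Xpo5, differed by 0.01 (SE 0.06).

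Argonaute partners (12 genes) had a median of 0.0047. The RNA-binding protein gene Fxr1 differed by 0.05 (SE 0.04) and the LIM domain gene Wtip by -0.04 (SE 0.04). The paralogues of Tnrc6a, named here because they share its role, differed by -0.04 (Tnrc6b, SE 0.11) and by -0.0029 (Tnrc6c, SE 0.06).

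The deadenylation genes, which shorten poly(A) tails, had a median of -0.0048 over 13 genes. Cnot11 and Cnot3, subunits of the CCR4-NOT deadenylase, differed by 0.07 (SE 0.06) and 0.24 (SE 0.24). KO 1 alone was high for Cnot3, at 8.76 against 8.18 to 8.26 on the other arrays, and without KO 1 the difference was -0.047. A second probe set of Cnot3 differed by -0.31. For 10 of the 13 genes the arrays of number 1 were above those of number 2, against the 22% of all genes given above. Decapping and decay genes (12, median 0.02) included the decapping cofactors Patl1 at 0.12 (SE 0.08) and Dcp1b at 0.07 (SE 0.05).

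Genes that tail or degrade microRNAs and their precursors (9, median 0.04) included the exoribonuclease Xrn2 and the uridylyltransferase Tut7. Xrn2 read 9.55 and 9.61 in KO, and 9.94 and 9.68 in WT, a difference of -0.23 (SE 0.11) that did not pass (limma adjusted p = 1). Tut7 differed by 0.06 (SE 0.05).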

How the data were processed

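Messenger RNA was measured on 4 one-colour arrays labelled with biotin, 2 per group. Per the submitters' processing notes, the authors used RMA to make the deposited log2 values. The RMA version and the probe set definition were not given in the sources used here. No detection calls were used here. In 47.1% of probe sets at least 2 arrays had the same value. Of 45101 probe sets, 34945 had a single symbol in GEO's platform annotation, 932 had several, 9160 had none and 64 were controls. Symbols were updated by gene identifier from RefSeq (GRCm38.p6), in which 34741 matched. KO was compared with WT by a two-sided moderated fit (lmFit, eBayes) in limma 3.58.1 under R 4.3.3. P-values were adjusted over all genes by the Benjamini-Hochberg method, and 95% intervals come from the same fit. The fit was run on simulated data with noise independent between arrays, without deviations shared by array number. That run checked the code only and does not bear on the results here. All 10 genes were named, and from each pathway list the 2 genes of smallest unadjusted p and any past the threshold. Members and lists were chosen with earlier results of these data known. Hsp90ab1, Ptges3 and Cnot1 were listed and had no probe set with that single symbol. Alternatives were other normalizations, a filter on dim genes, other uses of probe sets, a replicate block, other eBayes settings and leaving out arrays. The number of arrays limits the precision. A brighter probe set does not mean a more abundant transcript, so levels of the 10 genes were not compared with each other. That limit also holds for the markers set beside the median gene and for the genes of the Piwi branch.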

Additional observations from a re-analysis of the deposited data

How the results depend on the processing

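No member and no other gene of the pathway passed under any alternative run, and the smallest adjusted p of a member was 0.455. The 2 genes past the threshold became 1 without dim genes, 0 when probe sets were averaged per gene, 0 with every probe set by itself and 0 with the replicate block, and 0 without any 1 array. They were 3 with quantile normalization again or median centring. The median difference of the members ran from -0.08 to 0.06 when 1 array was left out. Of 70 values of single members under settings that can move a difference, 57 kept their sign and 13 did not, 12 of them with an array left out. With averaged probe sets the difference was 0.10 for Ago3, -0.028 for Ran and -0.035 for Cnot3, opposite in sign to the values above. Leaving out single arrays gave -0.077 to 0.13 for Drosha, -0.083 to 0.15 for Xpo5, -0.089 to 0.13 for Ago1, 0 to 0.073 for Ago2, -0.21 to 0.10 for Ago3, -0.077 to 0.093 for Ago4, -0.29 to 0.017 for Tnrc6a, -0.046 to 0.067 for Ran, -0.047 to 0.53 for Cnot3 and -0.21 to 0.0061 for Piwil1. Dgcr8 (0.06 to 0.22), Dicer1 (-0.12 to -0.0050), Tarbp2 (-0.37 to -0.15) and Tsn (0.54 to 0.77) kept their sign. Their KO and WT arrays did not overlap, so leaving out an array could not change the sign and adds no support. Drosha, Xpo5 and Ago1 turned negative without KO 1 or without WT 2, Ago3 turned positive and Ago4 negative without KO 2 or without WT 1, Tnrc6a turned positive without KO 2, and Ago2 was 0 without KO 1. The cause of these changes was not tested. Deviations from the group mean shared by arrays of 1 number correlated at r = 0.56 across genes, but the labels do not say that the numbers pair samples. With the replicate block 1 member in place of 0 had an unadjusted p under 0.05, Tarbp2 (limma unadjusted p = 0.0269, adjusted p = 0.809). That count was 0 to 1 with an array left out.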

Other observations

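The Piwi branch of the Argonaute family, which works with piRNAs in the germ line, was read as a comparison within the same arrays. Piwil1, an Argonaute relative, differed by -0.10 (SE 0.09) and the germ cell helicase gene Ddx4 by -0.07 (SE 0.05), KO minus WT on the log2 scale. Ddx4 read 2.95 to 3.08 over the 4 arrays, Piwil4 3.21 to 3.26, and Tdrd1 3.88 on each of them. Piwil2 was brighter and varied among the WT arrays, at 7.45 on WT 1 and 6.88 on WT 2. No gene of the branch passed (limma adjusted p = 1 for each of the 5), and the median difference was 0.00.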
